A study of Mus musculus with 27 samples.

Results

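Marrow haematopoietic stem and progenitor cells (HSPCs) of mice 3 weeks old were compared with those of mice 1 week old by bulk RNA sequencing. The comparison took the 3 libraries of 3w BM against the 3 libraries of 1w BM, where BM is the field's abbreviation of bone marrow. It covered every gene with an FPKM (fragments scaled to transcript length and library size) of at least 1 in 3 or more of these 6 libraries, which were 11237 of the 24418 entries in the deposited table. The whole series holds 27 libraries in 9 groups of HSPCs, from embryonic sources to 8-week marrow. All animals were C57BL/6, and no treatment or mutation is given for any group. How HSPCs were purified, which sex the animals had and whether a library pools several of them is not given in the sources used here. Nothing in the labels says that the 3 libraries of a group came from separate animals, so p-values speak only of the spread among the deposited libraries, which may be technical. In bulk RNA, fewer cells of a type and less RNA per cell cannot be told apart.

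HSPCs leave the fetal liver for the marrow around birth and for some weeks keep features of fetal cells, such as rapid division and expression of the RNA-binding protein Lin28b. In the mouse they then turn to the adult state, in which most stem cells divide rarely. Lin28b blocks the maturation of the let-7 family of microRNAs, and let-7 in turn represses messenger RNAs of growth and fetal genes, among them Hmga2 and the Igf2bp genes.

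The 6 libraries were close to each other. FPKM summed to between 532888 and 572088, and between 14241 and 15126 entries were above 0. As FPKM are already scaled to library size, these sums do not show how large the libraries were. The depth estimated from the lowest values was 0.758 to 1.17 times that of the median library of the series. That estimate is rough, as it was read from a peak of 57 to 176 genes in each library. Across genes, which are not independent replicates, r was 0.991 to 0.993 within 3w BM, 0.989 to 0.991 within 1w BM and 0.972 to 0.978 between the groups. Kit, the stem cell factor receptor, was at 112, 119 and 126 FPKM in 3w BM and at 138, 136 and 128 in 1w BM, and Ptprc, the gene of CD45, at 62 to 63.9 in 3w BM and 60.7 to 67.4 in 1w BM. Kit, a marker of haematopoietic progenitors, and Ptprc, a marker of leukocytes in general, were thus present at similar levels in every library. Neither was called, although Kit was called lower without 3w BM 3 (limma, adjusted p = 0.0489) and in a wider set of 13350 genes (adjusted p = 0.0365). The female transcript Xist was at 53.8, 48.9 and 24 FPKM in 3w BM and at 110, 83.6 and 43.9 in 1w BM, and the Y-linked Ddx3y at 23.9, 32.7 and 21.8 in 3w BM and 8.68, 13 and 19.1 in 1w BM. Every library thus held RNA of both sexes. Ddx3y did not overlap between the groups (0.94, limma, adjusted p = 0.0169) and Xist did. Without 1w BM 1 or 3w BM 2, Ddx3y lost its call. The Y-linked genes Kdm5d, Eif2s3y and Uty differed by 0.173, 0.515 and 0.521 and were not called. The part of sex in the results was tested only by adding the Y-linked level to the fit.

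In limma on log2(FPKM + 1), with Benjamini-Hochberg adjustment over all genes, 1595 of the 11237 genes had an adjusted p under 0.05, which is 14.2%. Of these, 924 were higher in 3w BM (8.22% of the genes tested) and 671 lower (5.97%). Most changes were small, with a median absolute log2 difference of 0.468 among called genes, and 124 genes were higher and 68 lower by at least 2-fold. The libraries of the 2 groups did not overlap for 4215 genes (37.5%), including 1576 of those called. The count fell to 823 without 1w BM 1, 923 without 3w BM 1, 999 without 3w BM 2, 1006 without 3w BM 3 and 1035 without 1w BM 3. With the Y-linked level as a covariate, chosen after seeing the data, 1031 genes were called. All differences below are 3w BM minus 1w BM on the log2(FPKM + 1) scale, which understates changes of low genes.

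**Figure D1:**
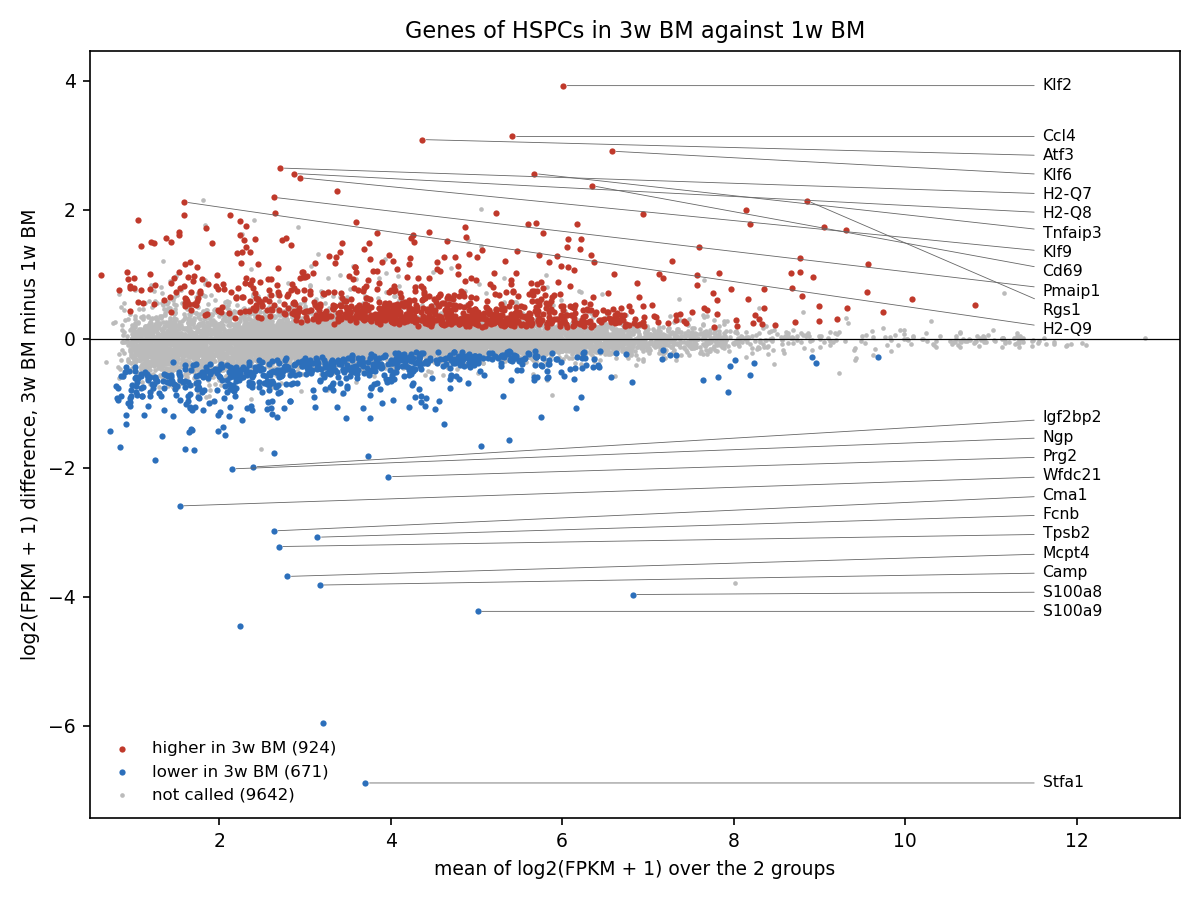
Difference between 3w BM and 1w BM (log2, vertical) against mean level (log2(FPKM + 1), horizontal) for the 11237 genes tested, with genes called higher in red, genes called lower in blue and the genes with the largest changes named. Klf2 stands at 3.92 at the top and Stfa1 at -6.89 at the bottom, and the largest falls reach further from 0 than the largest rises.

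Of the 12 largest rises the first was that of Klf2. Klf2, a Krüppel-like factor that restrains proliferation in lymphocytes, was at 237, 176 and 350 FPKM in 3w BM and at 14.7, 18.2 and 13 in 1w BM. The lowest 3w BM library thus lay well above the highest 1w BM library, although the 3w BM libraries themselves spread widely. Its log2 difference was 3.92 ± 0.71 (SE, limma fit of 15 libraries, adjusted p = 0.00271). SEs of differences, here and below, take the residual spread from all 15 libraries of 1w to 8w BM. The SD of Klf2 on the log2 scale was 0.497 in 3w BM, 0.233 in 1w BM and 2.06 in 8w BM. Ccl4, a chemokine, Atf3, a stress-induced transcription factor, and Klf6, a relative of Klf2, differed by 3.14, 3.09 and 2.91. Tnfaip3, an inhibitor of NF-kB signalling, Klf9, a further Krüppel-like factor, Cd69, an early activation antigen, Pmaip1, a pro-apoptotic gene, and Rgs1, a regulator of G protein signalling, differed by 2.56, 2.50, 2.37, 2.19 and 2.14. H2-Q7, H2-Q8 and H2-Q9, non-classical MHC class I genes, completed the list. Pseudogenes and genes with clone or predicted names were left out of this ranking, among them the pseudogene H2-Q5 (2.29) and the stefin A genes BC100530 (-5.95) and Gm5483 (-4.45). The 12 largest falls were in genes of granulocytes and mast cells and in Igf2bp2 of the fetal programme, described below. None of these 24 genes lost its call under any of the 16 alternatives that could test it.

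Genes of the fetal programme fell together. Of 14 listed genes 10 were tested, and 9 were lower in 3w BM and none higher, with a median difference of -0.89 against 0.001 over all genes tested. Lin28b, the member that passed the filter through 1w BM alone and on chromosome 10 (45376617 to 45486314, GRCm38.p6), was at 0.698, 0.712 and 0.993 FPKM in 3w BM and at 4.94, 4.54 and 5.38 in 1w BM, a difference of -1.73 ± 0.14 (SE; limma, adjusted p = 2.5e-06). Igf2bp2, which binds messenger RNAs of growth genes, was at 1.39 to 1.78 FPKM in 3w BM and 8.74 to 9.96 in 1w BM. Its relative Igf2bp3 was at 14.2 to 14.8 FPKM in 3w BM and 33.7 to 42.5 in 1w BM. Hmga2, a chromatin protein that raises self-renewal of fetal stem cells, was at 34.8, 33.1 and 34.8 FPKM in 3w BM and at 84.6, 84 and 74.3 in 1w BM (-1.22, adjusted p = 3.33e-06). For these 4 genes the groups stood far apart with little spread within either. Smaller falls were those of its relative Hmga1 (-0.60), of Arid3a, a transcription factor of fetal lymphopoiesis (-0.73), and of the DNA methyltransferase Dnmt3b (-0.64). Mycn (-1.05) and the Polycomb gene Cbx2 (-0.37) were called too, but Mycn lost its call in 4 and Cbx2 in 5 of the 6 fits that left out a library. Ezh2, the Polycomb methyltransferase, was not called (0.06, adjusted p = 0.621).

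The let-7 sequence and the sites that match it in 5 of these transcripts are shown because the programme is known as a let-7 target group. Capitals mark the seed (bases 2 to 8) in the microRNA and its complement CTACCTC in the transcripts. The microRNA lies at chr13:48538239-48538260, minus strand, and is from RefSeq (GRCm38.p6). The sites are from the 3′ UTRs of GENCODE transcripts (GRCm38) at chr10:120364224-120364246 (Hmga2), chr16:22059473-22059495 (Igf2bp2), chr6:49086787-49086809 (Igf2bp3), chr10:45381022-45381044 (Lin28b), all on the minus strand, and chr10:79953895-79953917 (Arid3a), on the plus strand.
mmu-let-7a-5p: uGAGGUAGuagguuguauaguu
Hmga2: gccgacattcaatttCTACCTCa
Igf2bp2: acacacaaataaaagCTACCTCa
Igf2bp3: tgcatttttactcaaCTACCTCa
Lin28b: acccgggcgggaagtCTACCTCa
Arid3a: aaggcaagtttctttCTACCTCa

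The site was present at least once in the longest 3′ UTR of 8 of the 10 tested fetal genes (80%), with 0.736 sites per kb. Hmga2 and Lin28b held 4 each, Arid3a 2, and Igf2bp2, Igf2bp3, Hmga1, Cbx2 and Ezh2 1 each. Over the 10448 tested genes with a 3′ UTR, 10.5% held it, at 0.0735 sites per kb. It was in 11.8% of 868 genes called higher (0.0663 per kb) and in 14.1% of 631 genes called lower (0.126 per kb). A match is a description of the sequence, not evidence of binding, the list was written with this pathway in mind, and let-7 itself was not measured here.

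Most of the imprinted genes tested, a class with parts in fetal growth, were lower as well. Summed over all its genes in the table, the list overlapped between the groups, at 460 to 503 FPKM in 3w BM and 485 to 506 in 1w BM. Of 13 tested, 8 were lower and 1 higher, with a median of -0.60, and 2 of the 13, one of them Dlk1, passed the filter through 1w BM alone. Dlk1, a Notch-like ligand of fetal tissues, was at 0.683, 0.292 and 0.537 FPKM in 3w BM and at 3.28, 3.62 and 2.83 in 1w BM (-1.50). Igf2r, the receptor that removes Igf2, Grb10, an adaptor that dampens insulin signalling, and Ndn, a growth suppressor, differed by -1.13, -1.07 and -0.97, and Peg13, a non-coding RNA, by 0.64.

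Genes of late neutrophil maturation, made after the progenitor stage, showed the largest falls of all. Of 16 tested of 25 listed, 12 were lower and 1 higher, with a median of -1.67, and the summed level of the list (here and below over all its genes in the table, tested or not) was 205 to 213 FPKM in 3w BM and 851 to 1296 in 1w BM. Of the 16, 6 passed the filter through 1w BM alone and all 6 were lower, so the count and the median partly follow from the filter. S100a8 and S100a9, which encode the calprotectin subunits and lie near each other on chromosome 3 (90669071 to 90670034 and 90692630 to 90695721, GRCm38.p6), were both among the 12 lower genes. S100a8 was at 24.7, 32.9 and 24.4 FPKM in 3w BM and at 407, 339 and 608 in 1w BM (-3.97 ± 0.28 SE; limma, adjusted p = 5.13e-07). S100a9 differed by -4.23, the antimicrobial peptide gene Camp by -3.82, and the granule genes Ngp and Wfdc21 by -2.02 and -2.59. Stfa1, a stefin A protease inhibitor, was listed at 0 in 3w BM 1 and 3w BM 3 and was at 0.618 FPKM in 3w BM 2, against 132, 114 and 175 in 1w BM. Stefin A genes are near-identical copies, so the share of each is uncertain, but the 7 in the table summed to 0, 1.77 and 0 FPKM in 3w BM and to 214, 204 and 302 in 1w BM.

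The fall did not reach all granule genes. Lyz2, the lysozyme of neutrophils and macrophages, was at 76.4 to 89.5 FPKM in 3w BM and 80.3 to 81.9 in 1w BM (0.01, adjusted p = 0.953), and Lcn2 was not called (-0.60, adjusted p = 0.216). Of 15 primary granule genes, which are active in progenitors, 2 were higher and 2 lower, and without 1w BM 1 none was called higher and 1 lower. Among the 15, Mpo, myeloperoxidase, was at 1985, 1802 and 1979 FPKM in 3w BM and at 1707, 1784 and 2545 in 1w BM. The groups overlapped, and no call was made for it. Fcnb, a ficolin of maturing neutrophils that is in no list, was at 1.52 to 2.79 FPKM in 3w BM and 21.6 to 28.9 in 1w BM.

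Mast cell and eosinophil granule genes fell with them in part. Of 10 mast cell genes tested, 3 were lower and none higher, with a median of 0.02, and the 18 listed genes summed to 101 to 110 FPKM in 3w BM and 108 to 166 in 1w BM. Those 3 were the tissue mast cell proteases Mcpt4 (0.876, 1.03 and 0.795 FPKM in 3w BM, against 15.6, 25.9 and 31.5 in 1w BM), Tpsb2 (-3.22) and Cma1 (-2.98). Cpa3, a protease also made by progenitors of mast cells and basophils, was at 51.7, 43.8 and 48 FPKM in 3w BM and at 27.1, 32.1 and 36.8 in 1w BM. It was not called (0.57, limma, adjusted p = 0.139), except in a fit of the 6 libraries alone (adjusted p = 0.00696). Of 7 basophil and eosinophil genes 3 were lower, namely Prg2, the major basic protein (5.43 to 7.65 FPKM in 3w BM, 16.2 to 50.5 in 1w BM), the basophil protease Prss34 (-1.77) and the eosinophil peroxidase Epx (-1.41). The 14 listed genes summed to 30.7 to 37.2 FPKM in 3w BM and 55.7 to 117 in 1w BM, with the eosinophil ribonuclease Ear10 listed at 0 in all 6 libraries.

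**Figure D2:**
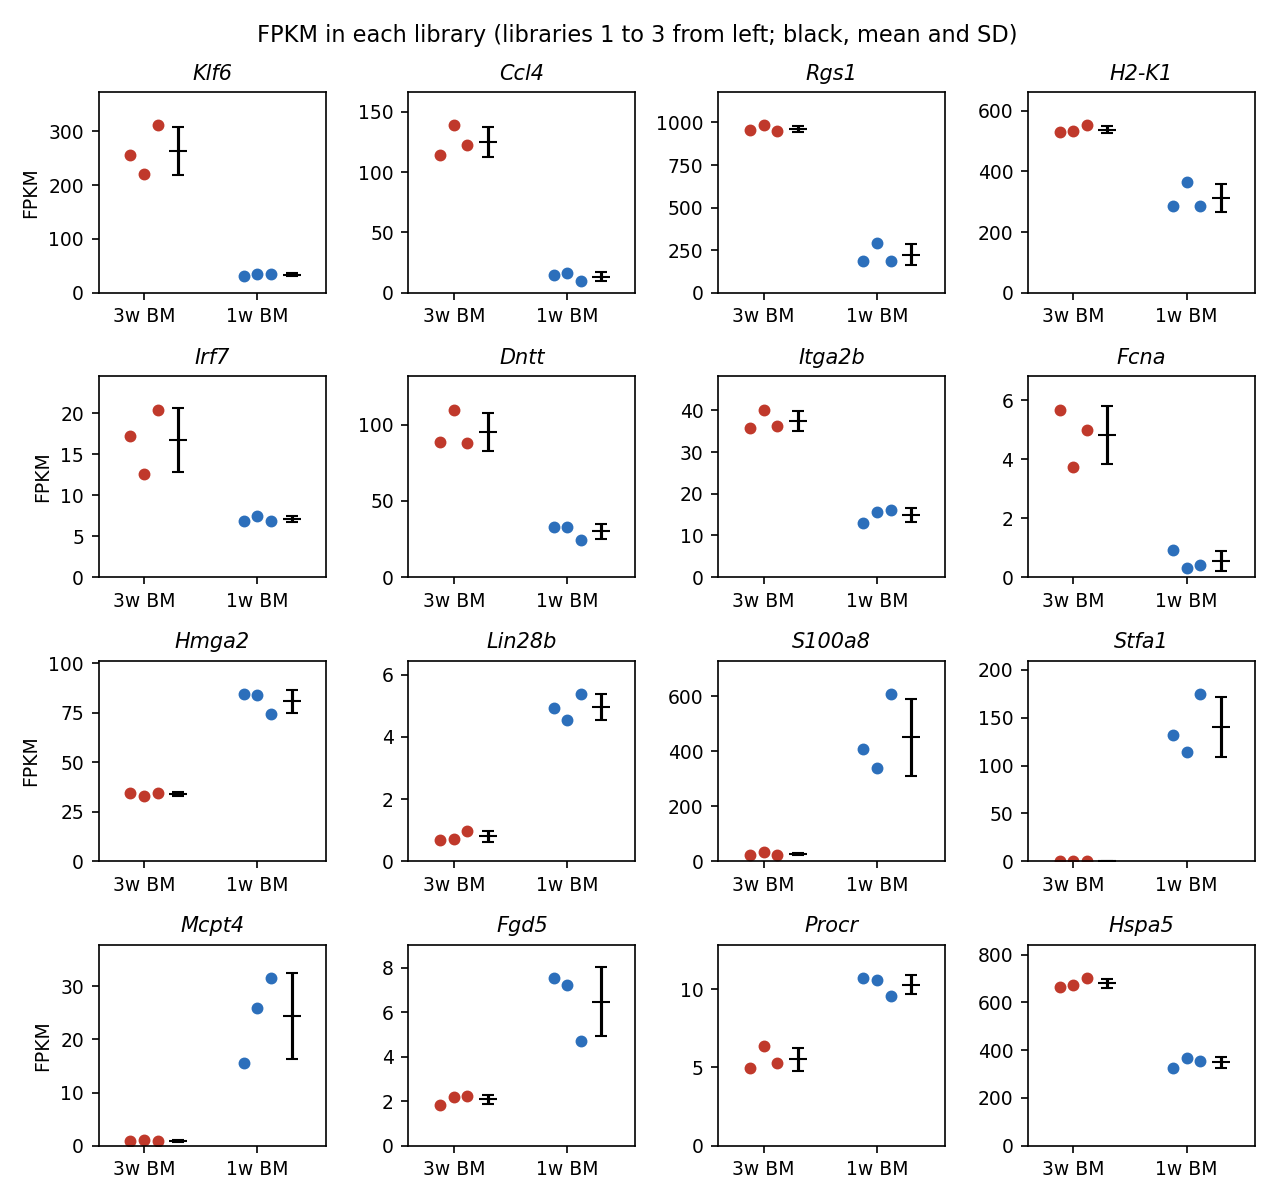
FPKM of 16 genes in each library (points), with the group mean and SD, 3w BM left and 1w BM right in each panel. S100a8, Stfa1 and Mcpt4 are low in all 3 libraries of 3w BM, and Klf6, Ccl4 and Rgs1 are high in all 3, with no overlap between the groups in any of these 6.

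Immediate-early genes, which respond within minutes to growth factors, cytokines and stress, rose together. Of 35 tested, 21 were higher and none lower, with a median of 1.16. They summed to 9678, 9219 and 11680 FPKM in 3w BM and to 3842, 5286 and 3716 in 1w BM. Fosb, a subunit of the AP-1 transcription factor, was at 518, 465 and 644 FPKM in 3w BM and at 148, 170 and 150 in 1w BM. Jun, its partner in AP-1, was at 1057, 989 and 1367 FPKM in 3w BM and at 320, 414 and 318 in 1w BM. The Jun relative Jund differed by 1.99 ± 0.32 (SE; limma, adjusted p = 0.00119). Every library of 3w BM was above every library of 1w BM for these 3 genes. Between 16 and 24 members were called higher when a library was left out.

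Chemokine genes and Cxcr4, the receptor that holds HSPCs in the marrow through its ligand Cxcl12, rose with them. Of 14 tested, 6 were higher and none lower (median 0.71), and the list summed to 508 to 571 FPKM in 3w BM and 178 to 236 in 1w BM. Ccl4 was at 114, 138 and 122 FPKM in 3w BM and at 14.4, 16.6 and 9.69 in 1w BM (3.14 ± 0.28 SE; adjusted p = 7.73e-06 in limma). Its neighbour in function Ccl3 differed by 1.78, Cxcr4 by 1.39 and the atypical receptor Ccrl2 by 1.63. Rgs1, which dampens signalling by such receptors, was at 954, 982 and 949 FPKM in 3w BM and at 187, 294 and 186 in 1w BM.

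Several genes that restrain the cell cycle rose. Of 22 CDK inhibitor and quiescence genes, 8 were higher and 3 lower (median 0.24), and 4 of the 22 are also in the immediate-early list. Cdkn1a, the p21 inhibitor, was at 128, 129 and 114 FPKM in 3w BM and at 33.5, 63.7 and 33.1 in 1w BM (1.55, limma, adjusted p = 0.007). Cdkn1b, the p27 inhibitor, and Btg1, an antiproliferative gene, differed by 0.66 and 0.94. The lower genes were Ndn, an imprinted growth suppressor, Txnip and the CDK inhibitor Cdkn1c. Txnip and Cdkn1c each lost their call in 4 of the 6 fits that left out a library. With 3w BM 2 or 3w BM 3 left out, 5 were called higher, and without 1w BM 1, 1w BM 2 or 3w BM 3 only 1 was called lower. Of 13 G1 cyclin and kinase genes 2 were higher and 4 lower (median -0.03). The kinase Cdk6 was higher (73.5 to 88 FPKM in 3w BM, 45.8 to 51.2 in 1w BM), as was the cyclin Ccnd3 (0.41). The lower genes were the cyclins Ccnd1 (-0.50) and Ccne1 (-0.51), the ubiquitin ligase subunit Skp2 (-0.55) and the transcription factor E2f3 (-0.24). None of these 4 was called lower without 1w BM 3 or 3w BM 2, only 1 without 1w BM 1, 3w BM 1 or 3w BM 3, and 2 without 1w BM 2. Of 11 genes of the Myc network 5 were higher, among them Myc (0.87) and its antagonist Mxd1 (1.48), and 1, Mycn, was lower. Of 32 mitosis genes 3 were lower and none higher (median -0.11), and Ccnb2, a mitotic cyclin, differed by -0.36. Without 1w BM 1, 1w BM 2, 1w BM 3 or 3w BM 2 only 1 mitosis gene was called lower, and with the 6 libraries alone 7 were. Of 42 DNA replication genes 1 was higher and none lower (median -0.05), and no gene was called without 1w BM 1, 1w BM 3, 3w BM 1 or 3w BM 2.

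MHC class I genes, which present peptides of the cell's own proteins to CD8 T cells, were higher at 3 weeks. Of 19 tested, 9 were higher and none lower (median 0.38), and the list summed to 3376 to 3521 FPKM in 3w BM and 2299 to 2600 in 1w BM. The classical gene H2-K1, on chromosome 17 (33996012 to 34000619, GRCm38.p6), was at 530, 533 and 551 FPKM in 3w BM and at 285, 365 and 288 in 1w BM (0.79 ± 0.08 SE; limma, adjusted p = 3.65e-05). H2-D1 differed by 0.77. B2m, the light chain of every class I molecule, and Nlrc5, the transactivator of class I genes, differed by 0.62 and 0.85. The non-classical gene H2-Q7 was at 14.1 to 17.4 FPKM in 3w BM and 0.946 to 2.02 in 1w BM. H2-Q8 was at 15.5 to 18.3 FPKM in 3w BM and 1.85 to 2.12 in 1w BM. H2-Q genes resemble each other closely, so single values are uncertain, but the 9 in the table summed to 153, 168 and 160 FPKM in 3w BM and to 53.7, 63.9 and 50.4 in 1w BM.

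MHC class II genes, which serve antigen-presenting cells, fell in part. Of 9 tested, 4 were lower and 1 higher (median -0.51). The class II chain H2-Aa was at 5.91, 7.27 and 5.45 FPKM in 3w BM and at 15.3, 12.2 and 21.1 in 1w BM (-1.23, limma, adjusted p = 0.00514). The invariant chain Cd74 and H2-Ab1 differed by -1.05 and -0.72, and the peptide exchange gene H2-DMa by 0.36. In the fit of all 27 libraries these 4 lost their calls (limma, adjusted p = 0.0579 for H2-Aa, 0.0995 for Cd74, 0.165 for H2-Ab1 and 0.116 for H2-DMa).

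Interferon response genes, many of them antiviral, were higher at 3 weeks in large number and by small amounts. Of 40 tested, 31 were higher and 1 lower (median 0.55). The list summed to 1298 to 1562 FPKM in 3w BM and 1022 to 1139 in 1w BM. Irf7, the transcription factor that amplifies the type I response, was at 17.2, 12.6 and 20.4 FPKM in 3w BM and at 6.86, 7.46 and 6.85 in 1w BM (1.12). Ifi44, of unsettled function, was at 8.35, 6.16 and 9.97 FPKM in 3w BM and at 2.58, 1.93 and 1.80 in 1w BM (1.55 ± 0.16 SE; limma, adjusted p = 2.23e-05). Usp18, which removes the ubiquitin-like Isg15, and Oas2, a sensor of double-stranded RNA, differed by 1.33 and 1.29. In these 4 genes the groups did not overlap. Without 3w BM 3, 19 genes were called higher, and without 1w BM 1, 20. The lower gene, Ifitm1 (-0.64), lost its call in 5 of the 6 fits that left out a library.

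The promoters of Oas3, Isg15 and Rsad2 are shown because they have the largest differences among the called genes of the list with the interferon motif in the RefSeq promoter table. Oas3 differed by 1.03, Isg15 by 0.79 and Rsad2 by 0.65, and Rsad2 lost its call without 1w BM 1, 1w BM 3, 3w BM 1 or 3w BM 3. Capitals mark GAAA, any 2 bases, GAAA, on either strand. Each runs from 250 bases before to 50 after the start, on the minus strand of GRCm38.p6, at chr5:120777610-120777909, chr4:156200769-156201068 and chr12:26456403-26456702.
Oas3: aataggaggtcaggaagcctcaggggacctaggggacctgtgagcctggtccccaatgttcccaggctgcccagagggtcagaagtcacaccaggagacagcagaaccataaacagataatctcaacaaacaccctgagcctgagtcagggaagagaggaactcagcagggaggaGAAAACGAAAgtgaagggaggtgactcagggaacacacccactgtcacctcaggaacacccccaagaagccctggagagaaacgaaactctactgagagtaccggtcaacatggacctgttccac
Isg15: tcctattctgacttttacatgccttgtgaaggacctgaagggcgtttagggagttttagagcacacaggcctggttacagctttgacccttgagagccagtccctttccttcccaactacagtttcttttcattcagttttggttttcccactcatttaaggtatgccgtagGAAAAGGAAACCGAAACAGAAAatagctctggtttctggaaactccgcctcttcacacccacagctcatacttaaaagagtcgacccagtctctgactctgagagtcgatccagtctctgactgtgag
Rsad2: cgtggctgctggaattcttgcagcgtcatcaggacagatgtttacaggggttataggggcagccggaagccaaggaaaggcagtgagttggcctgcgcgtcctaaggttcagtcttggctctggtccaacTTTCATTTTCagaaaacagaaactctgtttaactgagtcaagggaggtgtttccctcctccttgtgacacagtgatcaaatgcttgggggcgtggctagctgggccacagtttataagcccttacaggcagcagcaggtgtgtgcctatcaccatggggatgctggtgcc

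Of the 28 interferon genes with a promoter in the table, 17 (60.7%) held this motif, and of the 20 called higher among them 12 did. It was in 5 of 16 MHC class I promoters (31.2%). Over the tested genes with a promoter the share was 3.74% (9094 genes), over all promoters of this length 3.99% (27025 genes). Among genes called higher it was 5.8% (742 genes), and among genes called lower 1.69% (531 genes). A match describes the letters in this window and shows neither a bound site nor a cause, and no match says only that these letters are absent there.

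**Figure D3:**
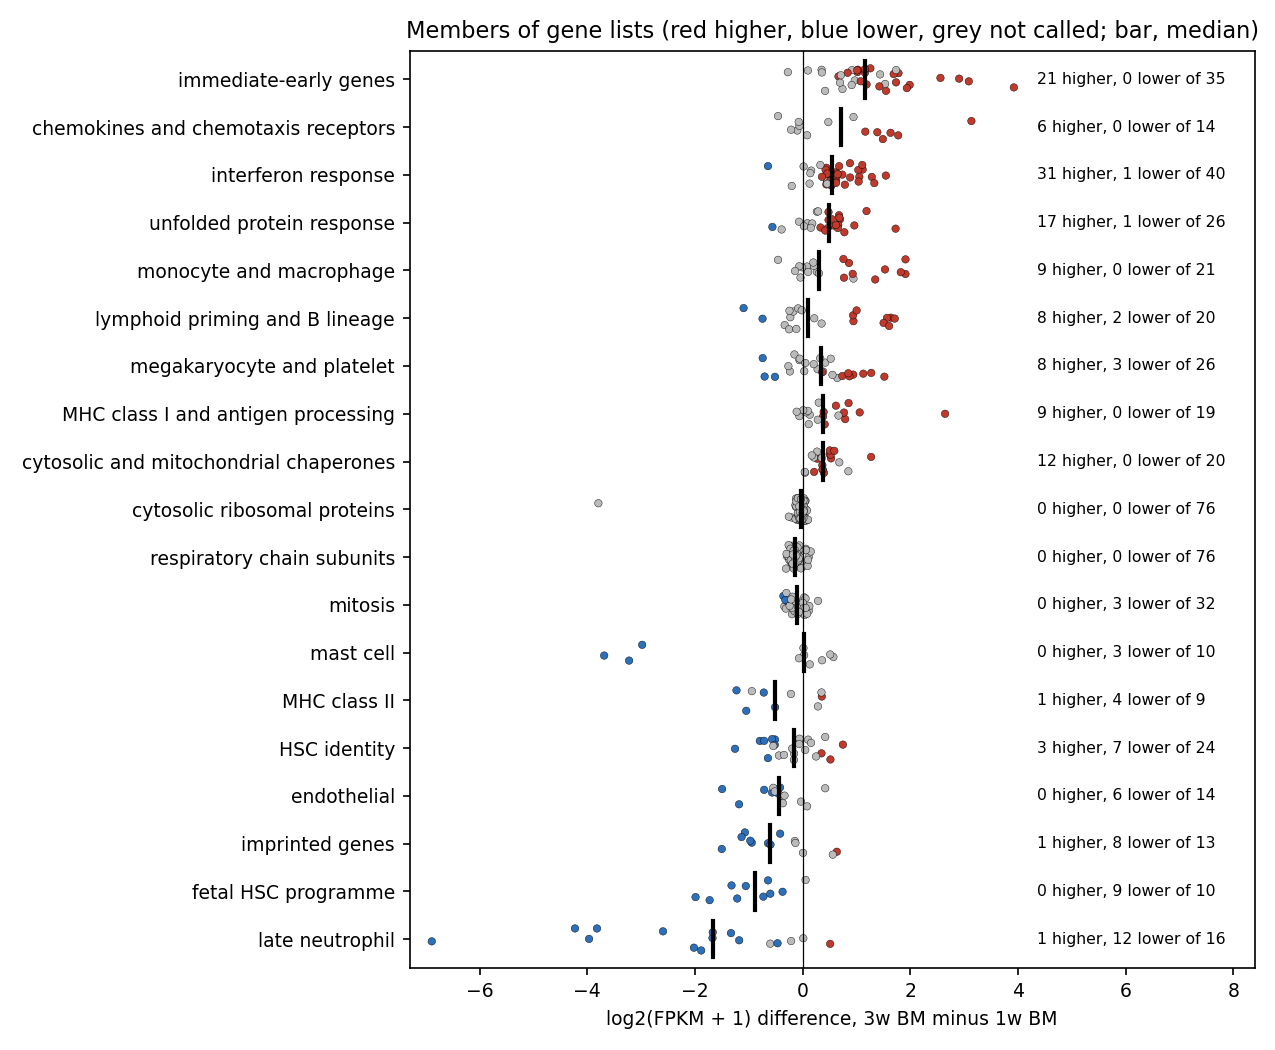
Differences between 3w BM and 1w BM (log2, horizontal) of the tested members of 19 gene lists, each point a gene coloured by its call, with a bar at the list's median. The immediate-early list has its median at 1.16 and no member called lower, and the late neutrophil list has its median at -1.67.

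Chaperones of the endoplasmic reticulum and cytosol were also higher. Of 26 genes of the unfolded protein response, which matches folding capacity to load, 17 were higher and 1 lower (median 0.48), and the list summed to 3176 to 3495 FPKM in 3w BM and 2121 to 2380 in 1w BM. Hspa5, the chaperone BiP, was at 665, 671 and 701 FPKM in 3w BM and at 324, 368 and 354 in 1w BM (0.96, limma, adjusted p = 0.00341). Ddit3, the factor CHOP, Herpud1, a degradation component, and Atf4, a translation-controlled stress factor, differed by 1.73, 1.19 and 0.78. Without 1w BM 1 the count of higher genes was 9, without 3w BM 1 or 3w BM 3 it was 10, and without 1w BM 2 it was 11. Of 20 cytosolic and mitochondrial chaperones 12 were higher and none lower (median 0.37). Hsph1, a co-chaperone of Hsp70, was at 55.3, 42.4 and 49.8 FPKM in 3w BM and at 19.9, 19.5 and 19.4 in 1w BM, and the constitutive Hsp70 gene Hspa8 differed by 0.53. Without 1w BM 1, 3w BM 2 or 3w BM 3 the count was 7.

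Some lymphoid, megakaryocyte and macrophage genes rose. Dntt, the terminal transferase that adds bases at antigen receptor joints and is on chromosome 19 (41029275 to 41059525, GRCm38.p6), was at 88.6, 110 and 87.9 FPKM in 3w BM and at 32.8, 32.9 and 24.4 in 1w BM (1.64, limma, adjusted p = 0.000169). Igll1, Vpreb1, Vpreb2 and Vpreb3, genes of the surrogate light chain of B cell precursors or its assembly, differed by 1.71, 1.57, 1.50 and 1.61. Igll1 was at 4.62 to 6.26 FPKM in 3w BM and 0.731 to 1.40 in 1w BM. Of 20 lymphoid and B lineage genes, 8 were higher and 2 lower (median 0.10), and 5 were higher and none lower in the fits of 24 or 27 libraries and with a pseudocount of 0.1, where Vpreb1 lost its call (limma, adjusted p = 0.0609). Of the 20, 3 passed the filter through 3w BM alone, and all 3 were higher. Ebf1, Il7r, Cd79a and Cd79b, which act in B cell precursors, were not called. Rag1, of the recombinase, was called lower (-0.74), but not without 1w BM 1, with a pseudocount of 0.1, or in the fits of 24 or 27 libraries.

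Of 26 megakaryocyte and platelet genes 8 were higher and 3 lower (median 0.35). Itga2b, the integrin chain CD41, was at 35.9, 40.2 and 36.2 FPKM in 3w BM and at 13, 15.7 and 16 in 1w BM (1.27, limma, adjusted p = 0.000221). The platelet chemokine Pf4 differed by 1.52 and Plek, the platelet protein pleckstrin, by 1.13, while Mmrn1 and Gp9, also platelet genes, differed by -0.74 and -0.70. Members of the list thus moved in both directions, and with the Y-linked level as a covariate 4 were called higher.

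Of 21 monocyte and macrophage genes tested of 27 listed, 9 were higher and none lower (median 0.30), and the list summed to 242 to 258 FPKM in 3w BM and 164 to 245 in 1w BM. Fcna, a ficolin of tissue macrophages, was at 5.69, 3.75 and 5.01 FPKM in 3w BM and at 0.939, 0.307 and 0.416 in 1w BM. The complement genes C1qa, C1qb and C1qc differed by 1.91, 1.53 and 1.82, and Vcam1, an adhesion receptor of macrophages and stroma, by 1.35. Of the 21, 3 passed the filter through 3w BM alone, and all 3 were higher. With the Y-linked level as a covariate 4 were called. Of 14 endothelial genes 6 were lower and none higher (median -0.43), led by Ecscr (-1.50) and Sox18 (-1.18), and 3 were called lower without 1w BM 1, 1w BM 2, 3w BM 1 or 3w BM 3. Of the 6, 1 passed the filter through 1w BM alone. Tek and Robo4, among the 6, are also in the HSC identity list described below, so the lists are not separate. The 26 listed endothelial genes summed to 211 to 233 FPKM in 3w BM and 253 to 305 in 1w BM, and 12 of them, among them the endothelial cadherin Cdh5 and the receptor Kdr, were below 1 FPKM in all 6 libraries. Of 11 stroma genes 2 were higher and 4 lower, with the collagen Col1a1 at 15.6, 9.51 and 2.48 FPKM in 3w BM and at 2.90, 2.27 and 0.054 in 1w BM and no call (limma, adjusted p = 0.156). Only 2 stroma genes were called lower without 1w BM 2, 3w BM 2 or 3w BM 3, and 1 higher without 1w BM 1, 1w BM 3 or 3w BM 2. The 28 listed stroma genes summed to 42.4 to 71.9 FPKM in 3w BM and 33.6 to 47.8 in 1w BM, with the mesenchymal receptor Pdgfra listed at 0 in all 6. Of 7 T and NK cell genes 2 were higher, Cd28, a co-stimulatory receptor (1.43), and Tcf7, a T lineage factor (0.83), and the list summed to 142 to 158 FPKM in 3w BM and 127 to 150 in 1w BM, with 14 of its 22 genes below 1 FPKM in all 6 libraries. Of 6 dendritic cell genes 1 was higher, the interferon-induced Bst2 (0.44). Only 1 T and NK cell gene was called without 1w BM 1, 1w BM 3, 3w BM 1 or 3w BM 2, and no dendritic cell gene was without 1w BM 1, 1w BM 2, 3w BM 1 or 3w BM 3. Of 20 erythroid genes 1 was lower, and of 14 pan-leukocyte genes 1 was higher and 4 lower (median -0.14). The leukocyte integrin Itgb2, among these 4, was at 12.8 to 14.7 FPKM in 3w BM and 26.3 to 27 in 1w BM. The part of these other cell types in the results was not tested.

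More stem cell genes were called lower than higher. Of 24 HSC identity genes 3 were higher and 7 lower (median -0.16). Fgd5, a marker of long-term HSCs, was at 1.85, 2.19 and 2.22 FPKM in 3w BM and at 7.53, 7.20 and 4.68 in 1w BM (-1.25, limma, adjusted p = 0.00215). Procr, the protein C receptor EPCR, was at 4.94, 6.34 and 5.29 FPKM in 3w BM and at 10.7, 10.6 and 9.57 in 1w BM (-0.79). The receptor Tek differed by -0.57, and Angpt1, its ligand, by 0.52. Hlf, a transcription factor of stem cells (-0.64), lost its call without 1w BM 1 or 3w BM 1, and Ly6a, the gene of Sca-1 (0.75), in 4 of the 6 fits that left out a library. Without 1w BM 1, 1w BM 3, 3w BM 1 or 3w BM 3, only 1 gene of the list was called higher, and without 3w BM 1, 4 were called lower. Of 21 surface proteins used to sort HSPCs 3 were higher (14.3%), namely Itga2b, Ly6a and the progenitor antigen Cd93 (0.31). The 2 lower (9.52%) were Procr and the integrin Itgam (-0.37). Only 1 was called higher without 1w BM 3, 3w BM 1 or 3w BM 3, and 1 lower without 1w BM 1, 1w BM 2, 3w BM 1 or 3w BM 2. Cd34, Flt3, Cd48 and Slamf1 were not called. Cd34, a progenitor antigen, was at 297, 306 and 334 FPKM in 3w BM and at 314, 309 and 280 in 1w BM, and Flt3, a cytokine receptor of multipotent progenitors, at 119 to 141 in 3w BM and 110 to 136 in 1w BM. The groups overlapped for both.

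Other lists moved to differing extents. Of 43 haematopoietic transcription factors 8 were higher and 2 lower (median 0.06). Runx3, a factor of lymphocyte differentiation, was at 61.6, 65.6 and 63.1 FPKM in 3w BM and at 36.6, 42.9 and 33.8 in 1w BM (0.74), and Gfi1, a repressor needed for neutrophil maturation, was at 19 to 20.2 FPKM in 3w BM and 27.3 to 33.4 in 1w BM (-0.63). Without 1w BM 1, 1w BM 3, 3w BM 2 or 3w BM 3, 4 factors were called higher, and without 3w BM 1, 5. Histone genes summed to 544 to 582 FPKM in 3w BM and 346 to 430 in 1w BM. Of 52 tested, 43 had a difference above 0 (median 0.43). Called were 8 higher, led by Hist2h2ac (1.45), and none lower. The count was 4 without 3w BM 2, 5 without 1w BM 3 and 16 in the fit of the 6 libraries alone. The list of cholesterol and fatty acid synthesis summed to 601 to 632 FPKM in 3w BM and 688 to 738 in 1w BM. Of 30 tested, 26 had a difference below 0 (median -0.33), and 7 were called lower and none higher. The count called lower was 0 without 1w BM 1 or 3w BM 1, 1 without 3w BM 2, and 2 without 1w BM 2 or 3w BM 3. It was 4 without 1w BM 3, and 13 with the 6 libraries alone. Of 25 glycolysis genes 6 were lower and 1 higher, among them Ldhb, a subunit of lactate dehydrogenase (-0.58).

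None of the 76 respiratory chain genes and none of the 76 cytosolic ribosomal protein genes tested was called in limma, with medians of -0.13 and -0.03. In the fit of the 6 libraries alone, 6 respiratory chain genes and 1 ribosomal protein gene were called lower. The ribosomal gene, Rps27, differed by -3.79 and was not called in the fit of 15 libraries (adjusted p = 0.221). It was at most at 179 FPKM in 3w BM and ranged from 96.7 to 1403 in 1w BM, and how reads were shared with near-identical copies was not tested, so its value is uncertain. Of 10 Hox genes 1 was lower, of 33 Polycomb genes 1 was lower, and of 16 DNA methylation genes 1 was higher and 2 lower, the methyltransferases Dnmt3b and Dnmt3a (-0.31). Of 31 cytokine receptors 5 were higher and 5 lower, of 31 integrin and adhesion genes 4 higher and 6 lower, of 27 p53 targets 4 higher and 2 lower, of 20 genes of fatty acid oxidation 1 higher and 1 lower, and of 12 genes of serine, one-carbon and amino acid uptake 1 higher. Of 30 ribosome biogenesis genes 5 were higher and none lower, but 2 were without 3w BM 3 and 3 without 1w BM 1, 1w BM 2 or 3w BM 1. Of the cytokine receptors 3 were called higher without 1w BM 1 or 1w BM 2, and of the p53 targets 1 was called lower without 1w BM 1, 1w BM 2, 1w BM 3, 3w BM 1 or 3w BM 2. The fatty acid oxidation gene called higher lost its call without 1w BM 1, 1w BM 2, 3w BM 1 or 3w BM 2, the one called lower without 3w BM 1, and the uptake gene without 1w BM 1, 1w BM 3 or 3w BM 1.

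The same genes were then followed in steps whose compared groups share no library with 3w BM or 1w BM. The fits of these steps still drew each gene's residual variance in part from the 1w BM and 3w BM libraries. Calls in these steps are therefore not fully independent of those above. From 4 to 6 weeks, 372 of the 11237 genes were higher (3.31%) and 196 lower (1.74%). Of the 924 genes higher in 3w BM than in 1w BM, 151 were higher (16.3%) and 12 lower (1.3%) in 6w BM than in 4w BM. Of the 671 lower genes, 4 were higher (0.596%) and 68 lower (10.1%). Between 8w BM and Perinatal BM, 22.1% of all genes were higher and 19.5% lower. The 5 sex-linked genes tested were Xist and the Y-linked Ddx3y, Kdm5d, Eif2s3y and Uty. Of these 5, 4 were lower and none higher in this step (median -2.57), although their sum was higher. They summed to 190.5 to 195.9 FPKM in 8w BM and 108.5 to 131.1 in Perinatal BM. Sex-linked RNA thus differed between the groups of this step, where sex cannot be told apart from age. The part of sex was not tested. There, of the 924 higher genes 403 were higher (43.6%) and 94 lower (10.2%), and of the 671 lower genes 19 were higher (2.83%) and 412 lower (61.4%).

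**Figure D4:**
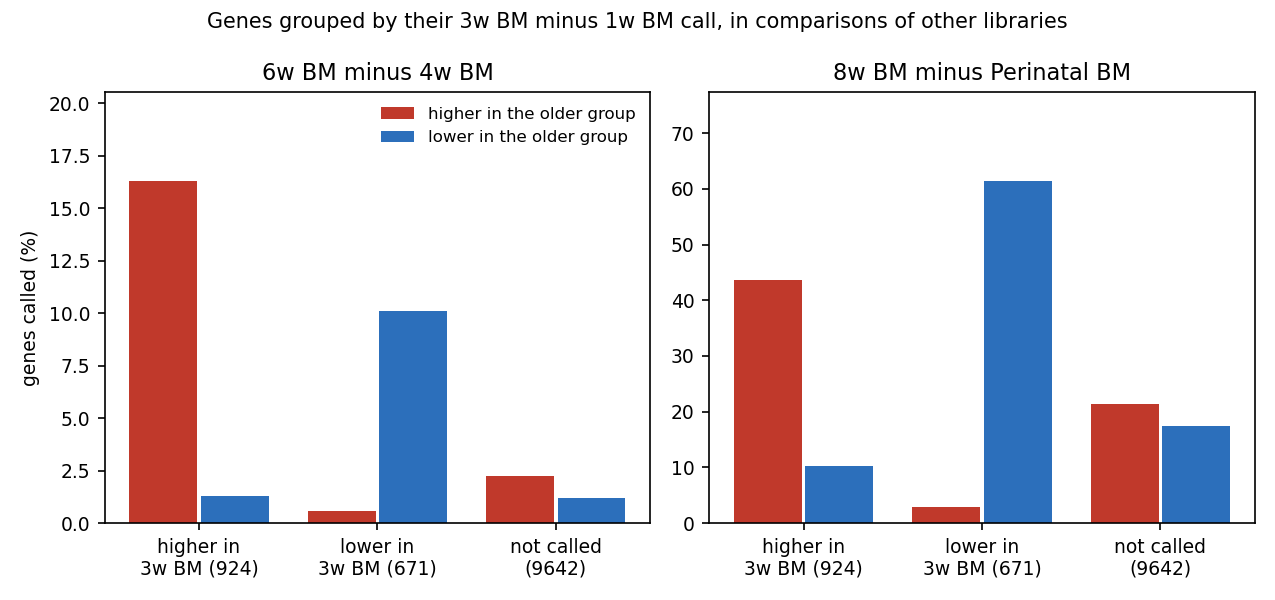
Percent of genes called higher or lower in 6w BM minus 4w BM and in 8w BM minus Perinatal BM, by their call in 3w BM minus 1w BM. Genes lower in 3w BM were lower in 8w BM than in Perinatal BM in 61.4% of cases, against 19.5% of all genes.

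Of the 10 tested fetal genes, 3 were lower and none higher in 6w BM minus 4w BM, and 7 were lower and 1 higher in 8w BM minus Perinatal BM. Hmga2 averaged 116 ± 5.9 FPKM in Perinatal BM (SD, n = 3 in each group), 81 ± 5.8 in 1w BM, 34.2 ± 0.95 in 3w BM, 30.9 ± 4 in 4w BM, 13.7 ± 0.23 in 6w BM and 9.14 ± 1.4 in 8w BM. Its difference was -1.11 in 6w BM minus 4w BM (limma, adjusted p = 4.03e-05) and -3.53 in 8w BM minus Perinatal BM. Igf2bp3 differed by -1.90 and -4.82 in these steps. Lin28b and Igf2bp2, already near 1 FPKM in 3w BM, were not called in 6w BM minus 4w BM and differed by -3.43 and -3.10 in 8w BM minus Perinatal BM. Summed over the tested members, the fetal list was at 679 to 702 FPKM in Perinatal BM, 573 to 604 in 1w BM, 356 to 397 in 3w BM, 277 to 304 in 4w BM, 220 to 243 in 6w BM and 231 to 258 in 8w BM.

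MHC class I levels were higher at the later ages. H2-K1 averaged 255 ± 0.59 FPKM in Perinatal BM, 312 ± 45 in 1w BM, 538 ± 12 in 3w BM, 678 ± 13 in 4w BM, 749 ± 50 in 6w BM and 738 ± 8.6 in 8w BM. Of the 19 tested class I genes 2 were higher in 6w BM than in 4w BM and 16 higher in 8w BM than in Perinatal BM, with none lower in either. H2-Q7 averaged 0.894 ± 0.41 FPKM in Perinatal BM and 86.9 ± 14 in 8w BM. Of the 40 interferon genes 1 was higher and 1 lower in 6w BM minus 4w BM, and 18 higher and none lower in 8w BM minus Perinatal BM. Irf7 averaged 18.4 ± 11 FPKM in Perinatal BM, 7.06 ± 0.35 in 1w BM and 16.8 ± 3.9 in 3w BM, and the libraries of Perinatal BM varied widely.

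The late neutrophil genes were at a low summed level from 3 weeks on. Summed over the tested members they were at 348 to 1209 FPKM in Perinatal BM, 849 to 1294 in 1w BM, 203 to 211 in 3w BM, 182 to 196 in 4w BM, 182 to 216 in 6w BM and 191 to 238 in 8w BM. The mast cell protease Mcpt4 averaged 255 ± 117 FPKM in Perinatal BM, 24.4 ± 8.1 in 1w BM and 0.9 ± 0.12 in 3w BM. Perinatal BM was thus the highest of the marrow groups for Mcpt4, while for the neutrophil list it overlapped with 1w BM.

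The immediate-early genes and the chaperones of the endoplasmic reticulum did not follow a steady course. Immediate-early genes summed to 5276 to 6711 FPKM in Perinatal BM, 3716 to 5285 in 1w BM, 9218 to 11680 in 3w BM, 8650 to 9174 in 4w BM, 13830 to 22310 in 6w BM and 4803 to 12090 in 8w BM. The 3w BM libraries lay above all libraries of Perinatal and 1w BM, and the 8w BM libraries spread so widely that they overlapped with those of the 4 youngest groups. Klf2 averaged 254 ± 89 FPKM in 3w BM, 85.6 ± 15 in 4w BM, 458 ± 330 in 6w BM and 125 ± 126 in 8w BM. Hspa5 averaged 300 ± 25 FPKM in Perinatal BM, 349 ± 23 in 1w BM, 679 ± 19 in 3w BM, 350 ± 46 in 4w BM, 703 ± 111 in 6w BM and 366 ± 133 in 8w BM. In 4w BM minus 3w BM, which shares the 3w BM libraries, 5.19% of all genes were higher and 5.09% lower. There, 16 of the 26 unfolded protein genes and 9 of the 20 chaperones were lower and none higher, and Hspa5 differed by -0.96.

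**Figure D5:**
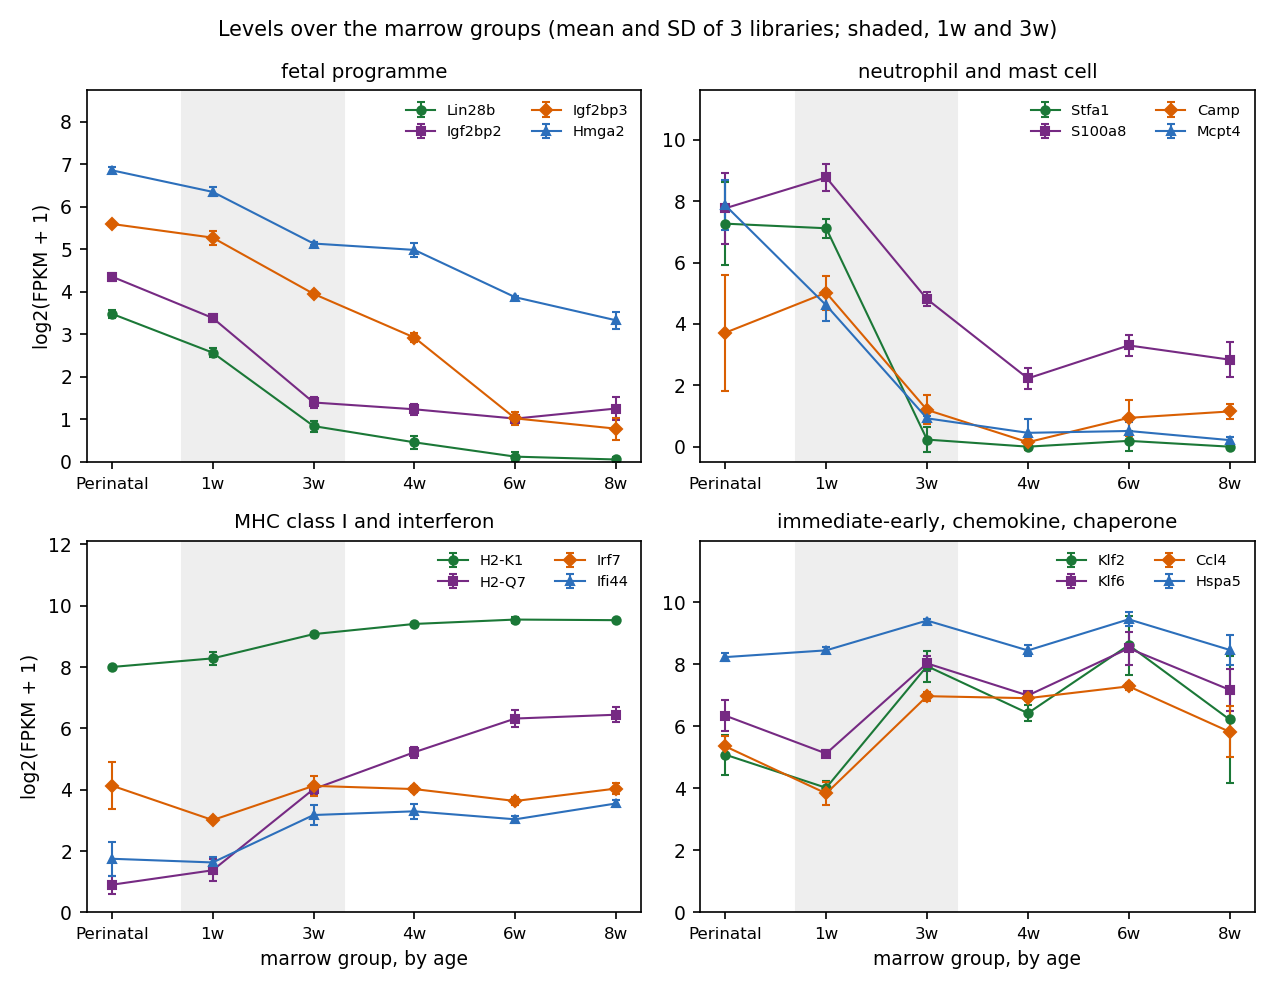
Mean log2(FPKM + 1) with SD (n = 3) of 16 genes in Perinatal BM and in 1w to 8w BM, in 4 panels. Lin28b, Igf2bp3 and Hmga2 fall across the ages, and Igf2bp2 falls up to 3w BM and changes little after it. S100a8 and Stfa1 drop between 1w BM and 3w BM. The mean of Hspa5 is highest in 3w BM and 6w BM, with a wide spread in 8w BM.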

How the data were processed

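Total RNA of purified HSPCs was extracted with Tri Pure reagent and made into libraries with an Illumina TruSeq RNA kit, per the labels' protocols. Trim Galore, FastQC, STAR 2.7, HTSeq 0.6.1p1 and the GRCm38 build are named in the submitters' processing notes. Values were used as FPKM, as the authors deposited them. Which tool and annotation gave the FPKM, and whether libraries were rescaled, is not given in the sources used here. Depth is therefore unknown beyond the rough estimate given above, and it limits genes of low level most.

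FPKM were transformed to log2(FPKM + 1). The test was limma 3.58.1 under R 4.3.3, with lmFit and a trended eBayes, in the 15 libraries of 1w to 8w BM, with a mean per group and 10 residual degrees of freedom. Comparisons with Perinatal BM used 18 libraries and 12 residual degrees of freedom. P-values were two-sided and adjusted by the Benjamini-Hochberg method over the 11237 genes, with a threshold of 0.05. The fitting code was tried on simulated data with known changes and independent noise. Such data cannot show whether the deposited libraries come from separate animals. Python 3.11.15, numpy 2.4.6, pandas 2.3.3 and matplotlib 3.10.9 made the tables and figures. Of the members, 11193 matched RefSeq symbols, and 27 date-like entries of the table were not named.

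Named were the 12 genes with the largest difference in each direction among called genes that averaged 5 FPKM or more in the higher group, without overlap of libraries, leaving out pseudogenes, clone or predicted names, mitochondrial and date-like names, up to 4 members of each list in each direction by smallest adjusted p, and any member of the fetal, HSC identity, sorting, MHC class II and marker lists. B2m, Nlrc5, Oas3, Isg15, Rsad2, Rps27, H2-Q5, BC100530 and Gm5483 were named after their values were seen. The values of 1 gene that the rule names are not reported here. The genes, the 31 lists and the 14 marker lists were chosen with earlier results of these data known. Residual correlations between 3w BM and 1w BM libraries of the same number were -0.159, -0.001 and -0.06, so libraries were treated as unpaired. Alternatives were other pseudocounts, filters, scaling and libraries in the fit, a block for the replicate number, leaving out each library in turn, and a Y-linked covariate.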

Additional observations from a re-analysis of the deposited data

How the results depend on the processing

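No gene named by the rule reversed. Of the 173 genes so named, 114 kept their call under all of the 16 alternatives that could test them, 59 lost it under at least 1, and 51 when a library was left out. Leaving out each library gave 823 to 1129 called genes, 487 to 700 higher and 336 to 439 lower. The covariate of Y-linked level, chosen after seeing the data, gave 1031 called genes and 402 lower ones. In that fit 18 interferon, 11 unfolded protein, 7 chaperone and 5 CDK inhibitor genes were higher. With a filter at 5 FPKM, which tests fewer genes, 3 imprinted genes were lower, and 3 macrophage genes and 1 lymphoid gene higher. Under the other alternatives the number of called genes stayed within 1.5 times of the reported count, from 1322 with a filter at 5 FPKM to 1972 with the 6 libraries alone. Libraries were not paired by number, although correlations from 3 libraries per group cannot exclude that libraries of the same number are related. With a replicate block 1476 genes were called, 869 higher and 607 lower. Without a filter, 374 genes were called in 6w BM minus 4w BM, 126 of them lower, against 568 and 196. The cause was not tested. FPKM carry no counts, so the precision of low genes, such as the C1q and surrogate light chain genes, cannot be given from depth.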

Other observations

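Genes known as targets of the glucocorticoid receptor, the receptor of corticosterone in mice, were listed after Klf9 had been seen among the largest rises, so their counts are a description. Of 12 listed, 11 were tested, and 6 were higher in 3w BM than in 1w BM and none lower, with a median log2 difference of 0.91 against 0.001 over all genes. Klf9 itself is one of the 6 and counts in the median. Tsc22d3, the anti-inflammatory gene GILZ, was at 98.7, 89.9 and 78.6 FPKM in 3w BM and at 23.1, 26 and 26.4 in 1w BM (1.78 ± 0.12 SE; limma, adjusted p = 3.5e-07). Per1, a clock gene, was at 67.7, 79 and 67.3 FPKM in 3w BM and at 16.3, 25.3 and 13.5 in 1w BM (1.95). Fkbp5, a co-chaperone of the receptor, was at 55.4 to 64 FPKM in 3w BM and 24.9 to 26.8 in 1w BM (1.20), and Ddit4, an inhibitor of mTORC1, differed by 1.66. The groups did not overlap for these 4 genes. Zbtb16 (0.72) lost its call without 1w BM 1, 1w BM 2, 3w BM 1 or 3w BM 2. The metallothioneins Mt1 and Mt2 and the signalling inhibitor Errfi1 differed by -0.35, -0.46 and -0.25 and were not called. Dusp1 (0.912, limma, adjusted p = 0.0709) and Sgk1 (0.099, adjusted p = 0.833) were not called either. Both are also in the immediate-early list, so the lists are not separate.

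The letters CCAAT, on either strand, were in 19 of 23 promoters of unfolded protein genes (82.6%), against 43.5% of the promoters of genes tested. The share was also high in promoters of mitosis genes (80.8% of 26), MHC class I genes (68.8% of 16) and DNA replication genes (64.7% of 34). Among genes called higher the share was 40%, and among genes called lower 44.8%.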
